A study of Drosophila simulans and Drosophila sechellia and Drosophila simulans x Drosophila sechellia with 72 samples.

Results

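Cat and Prx5 are 2 of the 7836 genes in a merged expression table of 2 fly species, Drosophila simulans and Drosophila sechellia, and of hybrids between them. They were chosen by symbol as a pair of peroxide-removing enzymes, with no measured value in the rule, though with earlier results of these data known. Both passed the filter on low values in every fit. Cat encodes catalase, a peroxisomal enzyme that breaks hydrogen peroxide down to water and oxygen without a partner protein. Prx5 encodes a peroxiredoxin, an enzyme that reduces hydrogen peroxide and organic peroxides with electrons passed on from thioredoxin, and that is found in mitochondria and other compartments. Oxidation of fatty acids in peroxisomes and respiration in mitochondria both yield peroxides, so the pair covers a peroxisomal and a largely mitochondrial route of removal. Octanoic acid is a medium-chain fatty acid of the fruit of noni, a plant on which D. sechellia has specialised, and it is toxic to D. simulans.

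The study measured poly(A) RNA in 72 libraries, 36 of adults and 36 of L3 larvae, to rank life stage, genotype and diet as sources of expression variation and to separate cis- from trans-regulatory divergence. Each library was made from 1 homogenate of 10 whole animals labelled female, from stocks at 20 °C under 16 h light and 8 h dark per day. The 3 genotypes were D. simulans, D. sechellia and the hybrid of the species, with no strain, transgene or cross direction in the labels. Each genotype had 4 media histories, written as the medium of the previous generation and then that of the current one, where S is the standard food and O the food with octanoic acid. SO animals, for example, came from a generation on standard food and ate octanoic acid themselves. Each of the 24 groups held 3 biological replicates. The values are FPKM, fragment counts scaled by gene length and library size, in 96 columns. A parental library has 1 column and a hybrid library has 2, 1 for the D. simulans allele and 1 for the D. sechellia allele, which were added to give the hybrid total.

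The columns are not on 1 scale. FPKM summed to between 483241 and 515024 in adult D. simulans and to between 1090157 and 1454241 in adult D. sechellia. In larvae the sums were 442983 to 543443 and 1137758 to 1515240. The 2 allele columns of a hybrid also differed, with 122009 to 192420 for the D. simulans allele and 766311 to 1034077 for the D. sechellia allele in adults. Differences between species, hybrids, alleles and stages are therefore given beside the median over all genes tested. They were also computed after median-ratio rescaling (1 factor per column from genes above 0 in every column), and those between the parental species also with every column scaled to a sum of 1000000. The mean correlation of a parental column with the other replicates of its group was lowest at 0.902, in a D. simulans larval library (OO, replicate 2). The highest of any parental pair within a species and stage was 0.993. Allele columns were less alike. The lowest values were 0.935 (D. simulans allele) and 0.864 (D. sechellia allele) in adults, and 0.874 and 0.798 in larvae. Adult allele columns had 2291 to 3256 genes at 0 and larval ones 1556 to 3790, against 1053 to 1529 and 407 to 805 in parental columns. Larvae labelled female carried summed FPKM of 25.3 to 277 over the 4 testis and accessory gland markers in D. simulans, 60.2 to 186 in D. sechellia and 5.88 to 81.1 in hybrids, while in adults these markers summed to at most 0.478. The part of male tissue in the larval values was not tested.

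In adult females both enzymes were higher in D. sechellia than in D. simulans, and by almost the same factor. The 12 D. simulans libraries had 97.7 to 149.1 FPKM of Cat with a median of 116.6, and the 12 D. sechellia libraries had 317.5 to 673.5 FPKM with a median of 550.2. For Prx5 the range was 211.6 to 246.0 FPKM around a median of 229.9 in the former, and 765.0 to 1324 FPKM around a median of 1016 in the latter. Every D. sechellia library lay above every D. simulans library for both genes, as every D. sechellia column sum lay above every D. simulans one. How many of all genes had ranges apart was not counted. The mean FPKM was 4.44-fold higher for Cat (519.0 ± 120 against 116.9 ± 14.1, SD, n = 12 each) and 4.44-fold higher for Prx5 (1019 ± 162 against 229.8 ± 10.7). Prx5 was the steadier transcript, with a coefficient of variation of 4.65% in D. simulans against 12.02% for Cat.

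**Figure D1:**
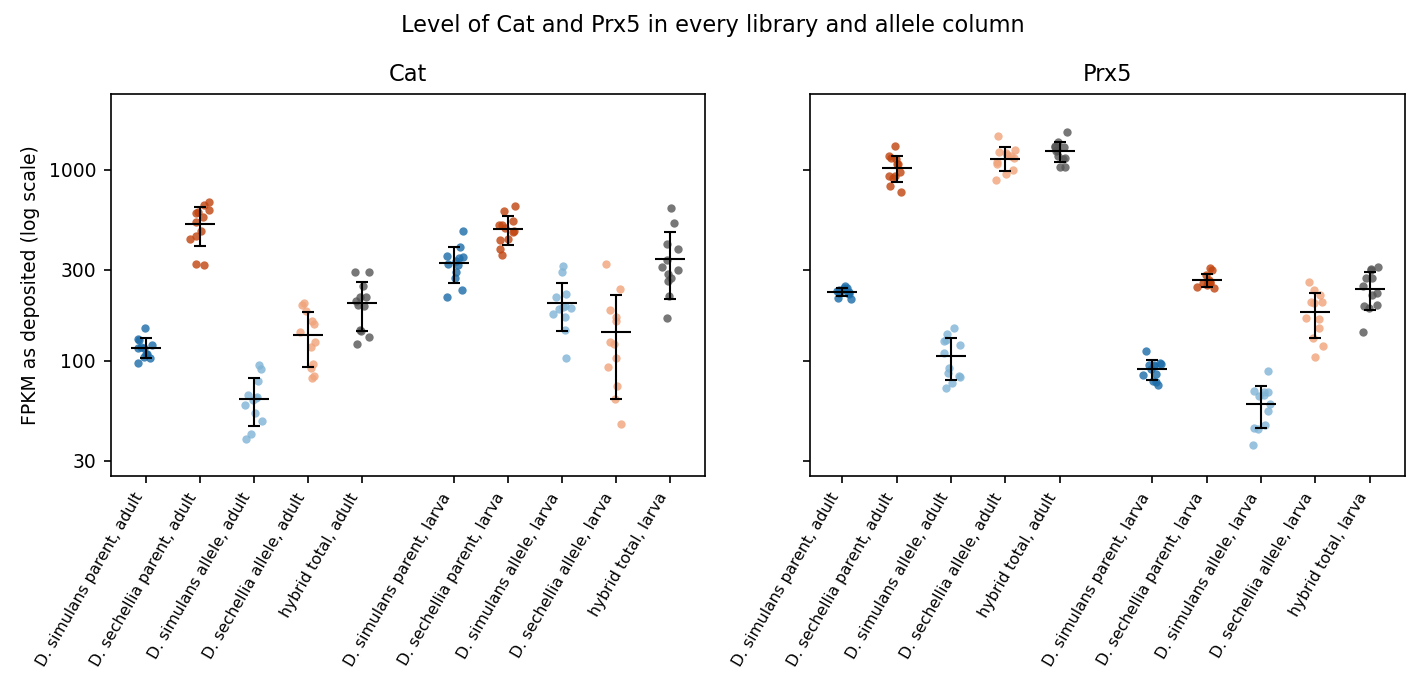
FPKM of Cat and Prx5 on a log axis, with 1 point per library or allele column and a bar at the mean ± SD of 12. Adult D. sechellia lies above adult D. simulans for both genes, whereas in larvae only Prx5 separates the parents without overlap.

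On the log2 scale the adult difference between the species was 2.11 for Cat (SE 0.14, adjusted p = 1.01e-13) and 2.13 for Prx5 (SE 0.07, adjusted p = 2.66e-20), by limma with Benjamini-Hochberg adjustment over 6420 genes. These were 2 of the 4632 genes called, which made up 72.1% of all tested, and the median gene was itself 0.72 higher in D. sechellia. A lower difference was found in 89.2% of genes for Cat and in 89.3% for Prx5. After median-ratio rescaling the differences were 1.32 for Cat (adjusted p = 2.86e-08) and 1.34 for Prx5 (adjusted p = 4.00e-12), beside an all-gene median of 0.07. With every column scaled to the same sum they were 0.73 and 0.75, beside a median of -0.46, and both remained called. As a share of the column sum, the Prx5 ranges of the species stayed apart and the Cat ranges overlapped.

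Markers of several tissues also differed between adults of the species, in both directions. The 6 muscle markers summed to 5885 to 9328 FPKM in D. simulans and 17237 to 61966 FPKM in D. sechellia. The 6 fat body markers summed to 1055 to 1667 FPKM and 2558 to 8813 FPKM, and the 4 Malpighian tubule markers to 101 to 136 FPKM and 375 to 632 FPKM. The 10 gut markers summed to 4147 to 5960 FPKM in D. simulans and 3219 to 6468 FPKM in D. sechellia, where 3 were called higher and 5 lower with a median difference of -2.16. The 8 ovary and egg markers summed to 9341 to 14671 FPKM and 6373 to 24143 FPKM, with 3 called higher, 4 lower and a median of -0.76. Of all genes 67.2% were called higher and 4.92% lower. After rescaling 1 gut marker was higher and 8 lower, and 1 ovary and egg marker was higher and 4 lower. Then 4 muscle, 5 fat body and 3 tubule markers were higher and 0, 1 and 0 lower. Of all 6396 genes 2023 were then higher and 1632 lower. None of the 5 lists had a member at 0 in every library of a species, and their part in the Cat and Prx5 differences was not tested. In RNA from whole animals, a change in the number of cells of a type and a change of RNA per cell cannot be told apart.

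Larvae separated the enzymes. Larval D. simulans libraries had 74.4 to 111.9 FPKM of Prx5 with a median of 92.1, and those of D. sechellia had 240.7 to 304.0 FPKM with a median of 256.6. The lowest D. sechellia larval library thus exceeded the highest D. simulans one, as it did for the column sums. As shares of the column sum these Prx5 ranges overlapped. Cat spanned 215.3 to 475.9 FPKM (median 326.3) in the former and 355.9 to 644.5 FPKM (median 485.3) in the latter, and these ranges overlapped. Prx5 was 1.55 higher in D. sechellia on the log2 scale (SE 0.12, adjusted p = 2.83e-12), and Cat was 0.60 higher (SE 0.16, adjusted p = 0.00232), by limma over 7167 genes. Of those genes 55.8% were called, and the median difference was 0.56.

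The larval Cat difference was thus close to that of the median gene, and its sign depended on the scale. After median-ratio rescaling it was -0.03 (adjusted p = 0.799), and with equal column sums it was -0.84 (adjusted p = 9.45e-05), so that Cat was then lower in D. sechellia. The all-gene medians on these scales were 0.04 and -0.65. Scaled to a column sum of 1000000, Cat stood at 668 ± 184 in larval D. simulans and at 370 ± 94.89 in larval D. sechellia (SD, n = 12 each). Prx5 kept its direction on each scale, at 0.92 after median-ratio rescaling (adjusted p = 1.88e-09) and 0.11 with equal sums, where it was no longer called (adjusted p = 0.304). It lay above the median gene on each scale. The fat body markers of larvae summed to 17353 to 28740 FPKM in D. simulans and 9315 to 23626 FPKM in D. sechellia, where 1 of 6 was called higher and 2 lower. Of 10 gut markers 3 were called higher and 6 lower, of 4 tubule markers 3 and 0, and of 5 muscle markers 1 and 0. Of all genes 49.4% were called higher and 6.36% lower. The part of these tissues in the larval differences was not tested.

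**Figure D2:**
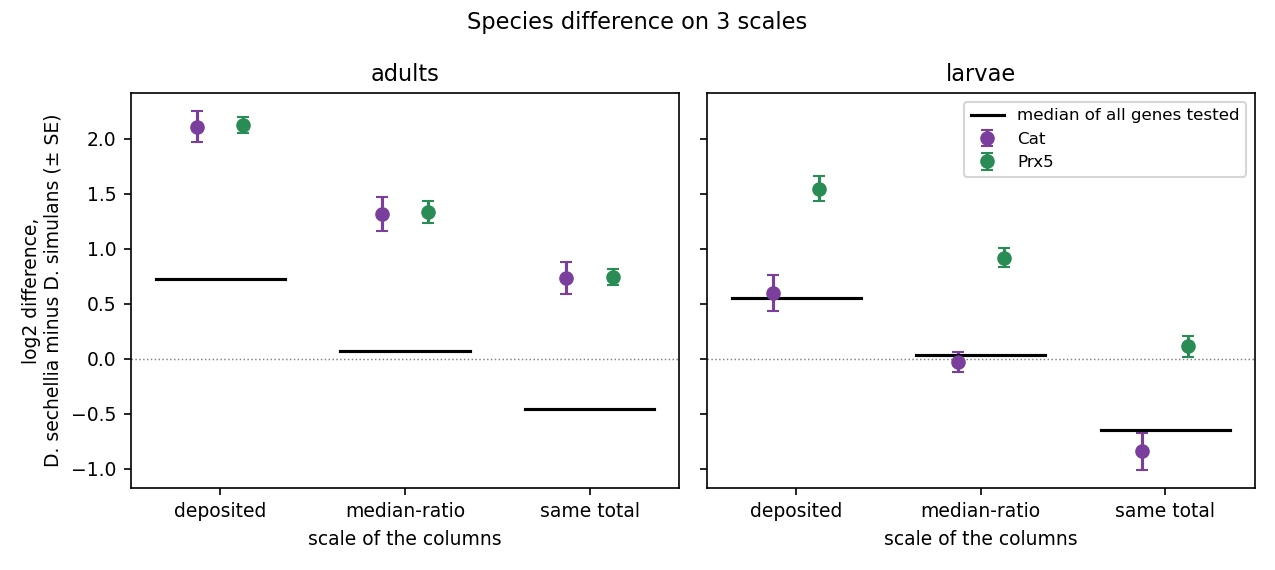
Log2 difference between the species for Cat and Prx5 (points, ± SE) on the deposited scale, after median-ratio rescaling and with equal column sums, with the median of all genes tested as a line. In adults both genes lie above the line and above 0 on every scale, and in larvae Cat lies close to the line.

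The species difference depended on the stage for both genes. In the 48 parental libraries the adult species difference exceeded the larval one by 1.51 for Cat (SE 0.16, adjusted p = 1.01e-09) and by 0.58 for Prx5 (SE 0.10, adjusted p = 1.38e-05), with 52.7% of 7361 genes called and a median of 0.09. These interactions were 1.41 and 0.47 after median-ratio rescaling, beside a median of 0.08. With equal column sums they were 1.57 and 0.63, beside a median of 0.26. Between the stages the enzymes moved in opposite directions in D. simulans. Adults differed from larvae by -1.45 for Cat on the log2 scale (SE 0.12, adjusted p = 5.55e-14), and by 1.35 for Prx5 (SE 0.07, adjusted p = 8.63e-19), where 78.1% of genes were called and the median was 0. In D. sechellia Prx5 was higher in adults by 1.93 (adjusted p = 1.42e-23), with 80.9% of genes called and a median of 0.13. Cat differed there by 0.07 between adults and larvae (SE 0.12, adjusted p = 0.600), and by -0.26 after rescaling (adjusted p = 0.0562), beside a median of -0.16. In hybrids the signs were those of D. simulans, with Cat at -0.74 (SE 0.20, adjusted p = 0.00232) and Prx5 at 2.41 (adjusted p = 5.33e-13), where 75.2% of 7181 genes were called and the median was 0.67. After rescaling the hybrid values were -1.82 for Cat (adjusted p = 7.19e-10) and 1.32 for Prx5 (adjusted p = 2.37e-10), beside a median of -0.22.

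Because both genes are read in the same column, the ratio of Cat to Prx5 FPKM does not depend on the scale of the columns. In adults the ratio had a geometric mean of 0.506 in D. simulans and 0.501 in D. sechellia. The mean log2 ratios were -0.98 ± 0.15 and -0.997 ± 0.200 (SD, n = 12 each), and their difference was -0.01 with a 95% interval of -0.16 to 0.14 (permutation test, two-sided p = 0.848). Adult parents of the species thus did not differ detectably in the balance of the enzymes, within that interval. In larvae Cat exceeded Prx5 in every parental library, with geometric mean ratios of 3.56 in D. simulans and 1.83 in D. sechellia. The larval log2 ratios lay between 1.32 and 2.68 in D. simulans and between 0.37 and 1.28 in D. sechellia, without overlap. The difference was -0.96 with a 95% interval of -1.25 to -0.67 (permutation test, two-sided p = 2e-05, the smallest that 100000 resamples can give).

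Hybrids held the enzymes at different levels relative to the parents. In adults the Prx5 total ranged from 1031 to 1565 FPKM with a median of 1264, which overlapped D. sechellia and lay above every D. simulans library. The Cat total ranged from 122.5 to 291.1 FPKM with a median of 200.4, which lay below every D. sechellia library and overlapped D. simulans. As shares of the column sum, hybrid Prx5 lay above every library of both parents, and hybrid Cat overlapped both parents. Against D. simulans the adult hybrid total was higher by 2.43 for Prx5 (adjusted p = 4.74e-22) and by 0.72 for Cat (adjusted p = 3.36e-05), where 76.1% of genes were called and the median was 0.84. Against D. sechellia Cat was lower, at -1.39 (SE 0.14, adjusted p = 5.68e-10), and Prx5 was higher by 0.30 (SE 0.07, adjusted p = 0.000603), where 74.8% of genes were called and the median was 0.07. Rescaling turned the Cat difference from D. simulans to -0.50 (adjusted p = 0.00467) and ended the call for Prx5 against D. sechellia, at -0.14 (adjusted p = 0.214). The all-gene medians were then -0.11 against D. simulans and -0.27 against D. sechellia. The Prx5 excess over D. simulans and the Cat deficit against D. sechellia remained called after rescaling, at 1.197 and -1.82.

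Tissue markers differed between hybrids and parents as well, in both directions. Against D. sechellia, 5 of 6 fat body markers were called lower in adult hybrids with a median of -2.34, 5 of 6 muscle markers lower with a median of -3.73, and 7 of 10 gut markers higher with a median of 2.22. Against D. simulans, 3 of 6 fat body, 4 of 6 muscle and 7 of 10 gut markers were called lower, and 2, 1 and 3 higher. The 4 tubule markers had 3 higher and 1 lower, and the 8 ovary and egg markers 3 higher and 2 lower. Of all 6420 genes 3797 were called higher and 1086 lower than in D. simulans. In larval hybrids 5 of 6 fat body markers were called lower than in D. simulans and 4 of 6 lower than in D. sechellia. The medians were -2.63 and -2.26, and 0 were called higher in either comparison. Of all 7167 genes 2167 and 3172 were called lower, and 2525 and 1393 higher. Against D. simulans, larval gut markers had 2 higher and 5 lower, tubule markers 0 and 1, and muscle markers 0 and 2. Against D. sechellia these counts were 6 and 4, 0 and 2, and 0 and 3. The part of these tissues in the hybrid levels of Cat and Prx5 was not tested.

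Larval hybrids had a Prx5 total of 141.0 to 309.1 FPKM with a median of 236.5, and a Cat total of 166.8 to 632.6 FPKM with a median of 302.7. Prx5 lay above all D. simulans larval libraries, and Cat overlapped both parents. As shares of the column sum the Prx5 total overlapped both parents too. Prx5 was higher than in D. simulans by 1.37 (adjusted p = 1.98e-11), and Cat differed by 0.01 (SE 0.16, adjusted p = 0.962), with 65.5% of genes called and a median of 0.08. Against D. sechellia Cat was lower, at -0.59 (adjusted p = 0.00229), and Prx5 differed by -0.18 (SE 0.12, adjusted p = 0.187), with 63.7% called and a median of -0.40. After rescaling the Cat difference from D. simulans was -0.36 (adjusted p = 0.000906), beside a median of -0.21.

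Within hybrids the D. sechellia allele held less of Cat, and more of Prx5, than it held of the summed FPKM of all genes. In adults the D. simulans allele of Cat ranged from 38.9 to 94.96 FPKM with a median of 63.2, and the D. sechellia allele from 80.8 to 200.6 FPKM with a median of 133.5. For Prx5 the D. simulans allele ranged from 72.3 to 148.2 FPKM with a median of 100.9, and the D. sechellia allele from 882.6 to 1493 FPKM with a median of 1160. The D. sechellia column held between 79.9% and 88.7% of the summed FPKM of an adult hybrid library. Its share of Cat was lower than that in 12 of 12 libraries, with a median of 68.5%. Its share of Prx5 was higher in 12 of 12, with a median of 91.5%. In larvae the column held 64.4% to 74.2% of the summed FPKM, against medians of 41.9% for Cat and 74.5% for Prx5, so that the Cat share was lower in 12 of 12 libraries and the Prx5 share higher in 11.

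With each allele column scaled to the same sum, the D. sechellia over D. simulans allelic ratio in adults was -1.38 for Cat on the log2 scale (SE 0.10, adjusted p = 7.02e-07) and 1.00 for Prx5 (SE 0.09, adjusted p = 2.56e-06). Of 6183 genes 49.4% were called and the median was -0.11. In larvae the ratios were -1.80 for Cat (SE 0.17, adjusted p = 3.54e-06) and 0.42 for Prx5 (SE 0.11, adjusted p = 0.00846), with 50.4% of 6994 genes called and a median of -0.47. If both columns of a library instead share 1 total, the adult Cat ratio turns to 1.07 (adjusted p = 4.70e-06) beside an all-gene median of 1.99, so the sign for Cat in adults rests on the scale while its place below the median gene does not. The larval Cat ratio was then -0.64 (adjusted p = 0.00837) beside a median of 0.33, and Prx5 stood at 3.46 in adults and 1.58 in larvae. How reads were assigned to alleles is not given in the sources used here, and its part in these ratios was not tested.

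The study's question on regulatory divergence compares the ratio of the parents with that of the alleles, which share 1 cellular environment. With every column scaled to the same sum, the parental ratio exceeded the allelic ratio of Cat by 2.11 in adults (SE 0.21, adjusted p = 1.55e-10) and by 0.95 in larvae (SE 0.29, adjusted p = 0.00723). Of all genes 55.9% were called in adults and 41.1% in larvae, with medians of -0.18 and -0.15. For Prx5 the parental and allelic ratios differed by -0.25 in adults (SE 0.12, adjusted p = 0.0668) and by -0.31 in larvae (SE 0.16, adjusted p = 0.117), neither of which passed the threshold. These results depend on the scale in sign and in call. Median-ratio rescaling gave Prx5 0.42 in adults, called in the opposite direction (adjusted p = 0.0163), and 0.16 in larvae (adjusted p = 0.407), beside medians of 0.34 and 0.25, and kept Cat called at 2.78 and 1.42. With a shared total the Cat differences turned to -0.34 (adjusted p = 0.161) and -0.21 (adjusted p = 0.564) and were no longer called, beside medians of -2.15 and -0.92, and Prx5 stood at -2.71 and -1.47, both called.

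The ratio of Cat to Prx5 within a column, which no scale alters, was therefore compared between each allele and the parent of its species. It does not remove a difference between the genes in how reads were assigned to alleles, whose part was not tested. In adults the D. simulans allele had a log2 ratio of -0.74 ± 0.27 against -0.98 ± 0.15 in its parent, a difference of 0.24 with a 95% interval of 0.06 to 0.43 (permutation test, two-sided p = 0.0133, adjusted p = 0.0177). The D. sechellia allele had a ratio of -3.13 ± 0.51 against -0.997 ± 0.200 in its parent, a difference of -2.13 with a 95% interval of -2.47 to -1.79 (adjusted permutation p = 8.0e-05), and the ranges did not overlap. In geometric means Cat stood at 0.115 of Prx5 in the D. sechellia allele and at 0.598 in the D. simulans allele. In larvae the D. simulans allele lay at 1.74 ± 0.27 against 1.83 ± 0.39 in its parent, a difference of -0.09 with a 95% interval of -0.38 to 0.19 (permutation p = 0.508, adjusted p = 0.581). The larval D. sechellia allele lay at -0.49 ± 0.51 against 0.87 ± 0.28, a difference of -1.36 with a 95% interval of -1.72 to -1.01 (adjusted permutation p = 0.000107), with overlapping ranges. Inside hybrid libraries the D. sechellia allele had the lower ratio in 12 of 12 adult libraries, by -3.09 to -1.66, and in 12 of 12 larval libraries, by -3.39 to -1.29. The mean differences were -2.39 and -2.23, each with an exact sign-flip permutation p of 0.000488, the smallest that 12 libraries allow, and an adjusted p of 0.000781 over the 8 tests of this ratio. The allele comparisons of the ratio were chosen after its values were seen.

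**Figure D3:**
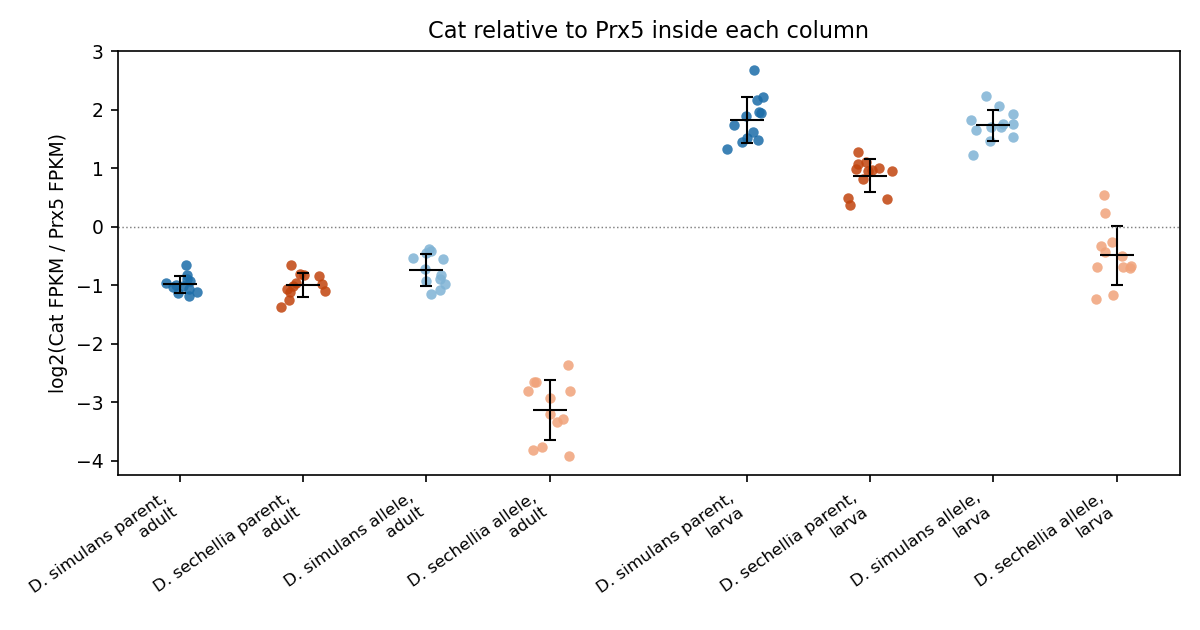
Log2 ratio of Cat to Prx5 FPKM inside each parental or allele column, with 1 point per column and a bar at the mean ± SD of 12. The D. sechellia allele lies lowest in both stages, at -3.13 in adults and -0.49 in larvae, while the D. simulans allele lies near its parent. The part of read assignment to alleles was not tested.

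Octanoic acid gave no called change of either gene. Over 52 media contrasts of Cat and Prx5 (current medium, previous medium, their interaction in each genotype and stage, and their interactions with species and allele) 0 were called by limma, 1 had an unadjusted p under 0.05, and the largest absolute log2 value was 0.48. That largest value was the interaction of previous and current medium for Cat in adult D. sechellia (SE 0.39). Few genes were called in these contrasts in general. In adults the current medium, the previous medium and their interaction called 0% of genes in D. simulans, 0.0156%, 0.0779% and 0.0623% in D. sechellia, and 6.73%, 1.7% and 1.48% in hybrids. In larvae the same contrasts called 0.014%, 0.293% and 0.014% in D. simulans, 0%, 0.014% and 0% in D. sechellia, and 0.949%, 0.67% and 0.781% in hybrids. The interactions of species with the current and previous medium called 0.0156% and 0.0312% in adults and 0% in larvae, and those of the allelic ratio called 0% in adults and 0.0429% each in larvae.

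The contrast with an unadjusted p under 0.05 was the current medium for Prx5 in adult hybrids. The hybrid totals were 1031, 1034 and 1155 FPKM in SS, and 1255, 1274 and 1317 FPKM in SO. With parents on octanoic acid they were 1132, 1178 and 1313 FPKM in OS, and 1330, 1386 and 1565 FPKM in OO. All libraries given octanoic acid lay above those on standard medium with the same previous medium. The mean effect was 0.25 on the log2 scale (SE 0.10, unadjusted p = 0.0230, adjusted p = 0.137), beside an all-gene median of -0.14, and it was 0.40 after median-ratio rescaling (adjusted p = 0.0980). As deposited, the D. sechellia allele stood at 882.6, 942.8 and 1072 FPKM in SS and at 1146, 1173 and 1240 FPKM in SO. The allelic ratio of Prx5 differed by 0.07 between the current media (SE 0.17, adjusted p = 0.981).

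Prx5 in adult D. simulans stood at 235.1, 240.4 and 246.0 FPKM in SS and at 212.3, 226.7 and 235.0 FPKM in SO, an average effect of the current medium of -0.05 (SE 0.10). In D. sechellia it stood at 904.2, 967.8 and 1153 FPKM in SS and at 818.5, 927.2 and 1067 FPKM in SO, and the effect was -0.07 (SE 0.10). The SO libraries of D. simulans lay just below those of SS, the opposite order to hybrids, and the SS and SO values of D. sechellia overlapped. The interaction of species with current medium for Prx5 was -0.02 in adults (SE 0.15) and 0.03 in larvae (SE 0.23).

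Cat was likewise called in no media contrast. In D. simulans larvae the totals were 290.1, 331.8 and 349.2 FPKM in SS, 352.5, 392.7 and 475.9 FPKM in SO, 234.9, 271.0 and 320.9 FPKM in OS, and 215.3, 318.6 and 346.8 FPKM in OO. SO libraries were the highest, and the groups with parents on octanoic acid were lower on average by a log2 value of -0.36 (SE 0.23, adjusted p = 0.493), beside an all-gene median of -0.13, and by -0.10 after rescaling. In adult hybrids Cat differed by 0.37 with parents on octanoic acid (SE 0.20, adjusted p = 0.387), beside a median of 0.03. These intervals were wide, since the 95% interval of the adult hybrid value ran from -0.03 to 0.78.

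**Figure D4:**
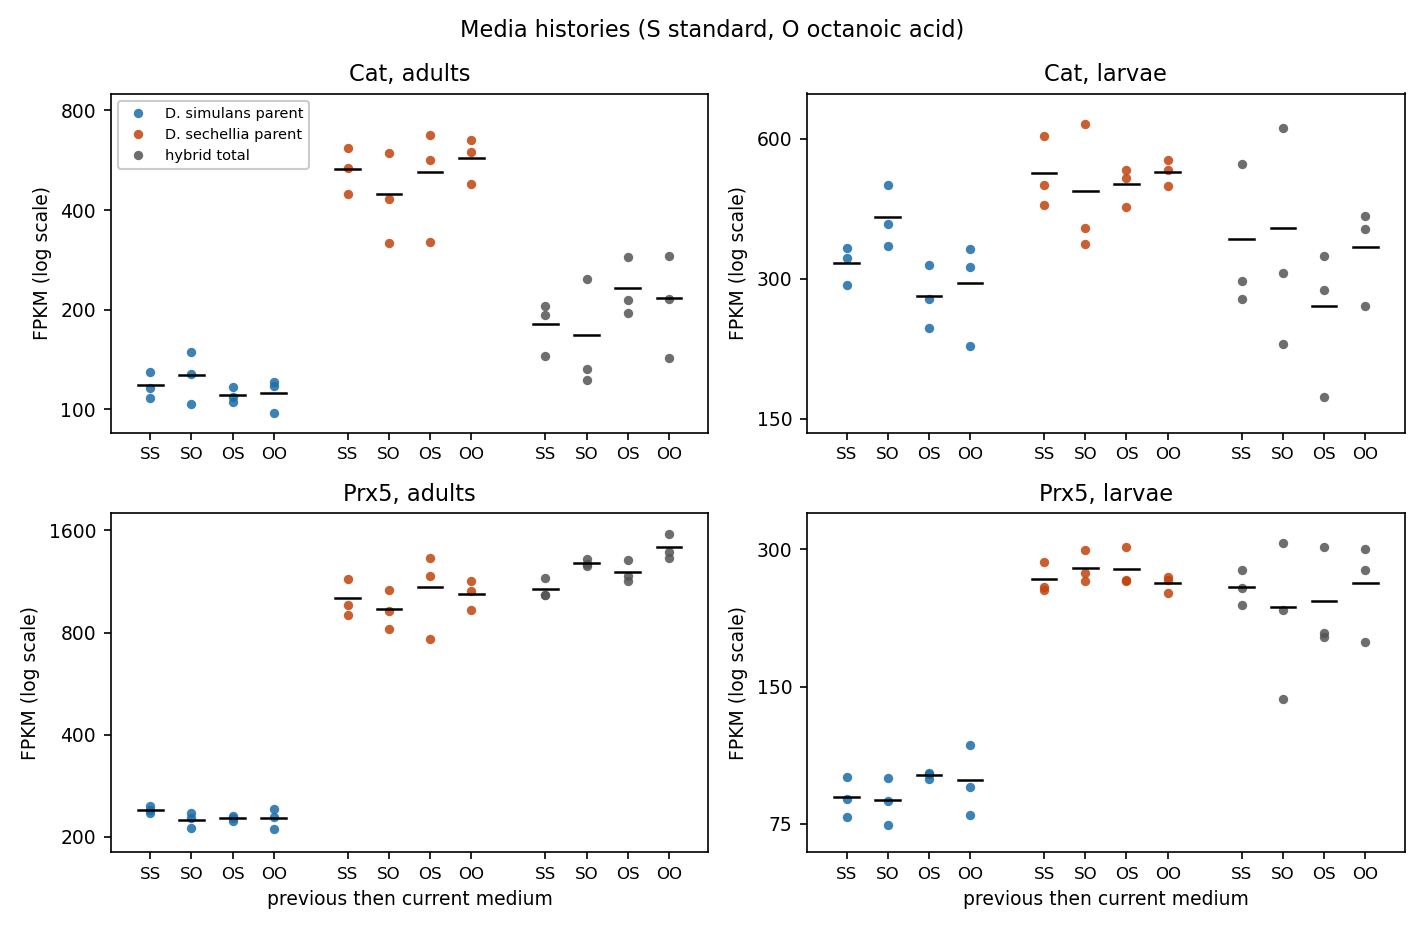
FPKM of Cat and Prx5 by media history on log axes, with 1 point per library and a line at the mean of 3, for D. simulans, D. sechellia and hybrid totals. Prx5 in adult hybrids is higher on current octanoic acid in both previous media, and no media contrast of either gene was called.

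The other genes of superoxide and peroxide removal put these values in context. Of the list's 24 symbols 11 are in the table, Cat and Prx5 included. In adults 10 of 11 were called higher in D. sechellia and 0 lower, with a median difference of 1.39, against 67.2% of all genes called higher, 4.92% called lower and an all-gene median of 0.72. After rescaling 6 were called higher and 1 lower, with a median of 0.62. Of all 6396 genes then tested 2023 were called higher and 1632 lower, with a median of 0.07. On the deposited scale Cat and Prx5 had the largest adult differences of the list. This rank is a description only, since members and list were chosen with earlier results known. They were followed by Jafrac2, a peroxiredoxin of the endoplasmic reticulum, at 1.68, Prx6005, at 1.60, and Jafrac1, a cytosolic peroxiredoxin, at 1.54 (adjusted p = 4.85e-11). Irc, an immune-regulated catalase, was 1.39 higher in adults (adjusted p = 9.86e-11). Sod3, an extracellular superoxide dismutase, was not called at -0.41 (adjusted p = 0.0559).

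In larvae 9 of the 11 genes were called higher in D. sechellia and 1 lower, with a median of 0.88, against 49.4% of all genes called higher and 6.36% lower. After rescaling the counts were 4 and 1, against 2027 and 1680 of all 7133 genes. The peroxiredoxins Prx6005, Jafrac2 and Jafrac1 stood at 1.69, 1.68 and 1.66, above Prx5 at 1.55 and Cat at 0.60. The gene called lower was PHGPx, a glutathione peroxidase homolog, at -0.57 (adjusted p = 0.00456), and Irc was not called at 0.37 (adjusted p = 0.0562). The species-by-stage interaction was positive and called for 6 of the 11 and negative for 1, against 31% and 21.7% of all genes. Cat had the largest called value at 1.51, followed by PHGPx at 1.24 (adjusted p = 1.98e-10) and Irc at 1.02 (adjusted p = 4.29e-06).

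**Figure D5:**
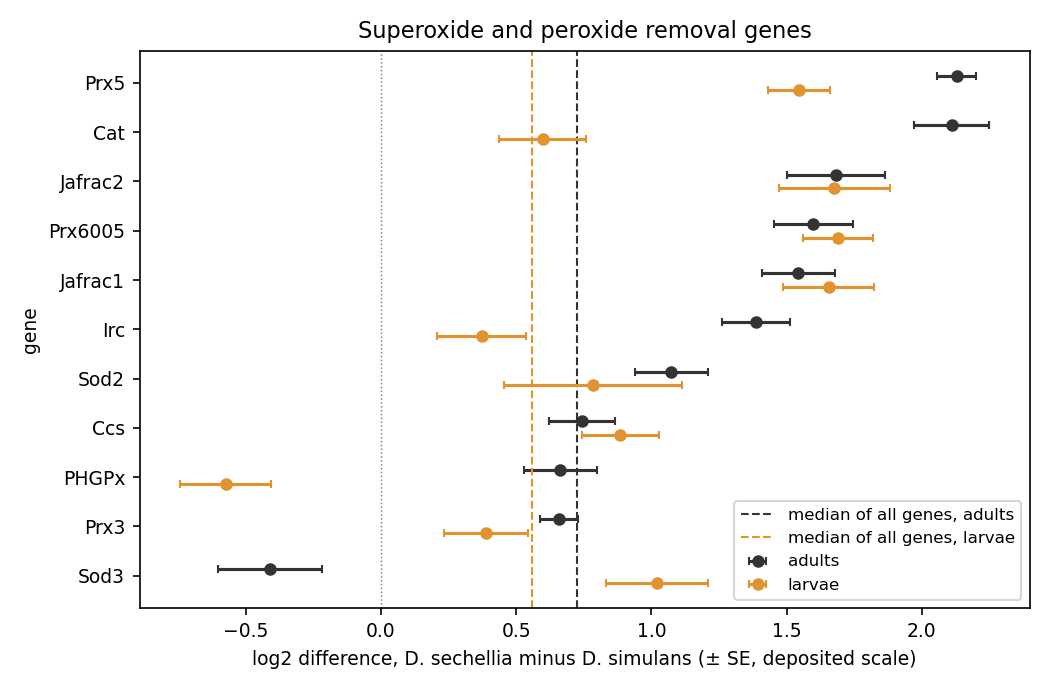
Log2 difference between the species (± SE, deposited scale) for the 11 genes of superoxide and peroxide removal in adults and larvae, with the all-gene medians as dashed lines. Cat and Prx5, chosen with earlier results known, have the highest adult values of the list. Cat falls from 2.11 in adults to 0.60 in larvae, near the larval median.

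Alleles of the list's genes did not lean one way. In adults 2 were called higher for the D. sechellia allele and 4 lower, and in larvae 3 and 5, against 21.3% and 28.2% of all genes in adults and 12.6% and 37.8% in larvae. Jafrac1 had the lowest ratios, at -3.78 in adults (adjusted p = 3.21e-05) and -6.40 in larvae (adjusted p = 3.12e-07), and Irc stood at -0.91 in adults (adjusted p = 6.25e-05). For the parental minus the allelic ratio, 3 of the 11 were called higher and 2 lower in adults, and 2 and 2 in larvae, against 22.6% and 33.3% of all genes in adults and 21.2% and 19.9% in larvae. Jafrac1 had differences of 3.94 in adults (adjusted p = 2.32e-07) and 6.62 in larvae (adjusted p = 6.87e-12). Prx3, the mitochondrial peroxiredoxin, stood at -0.70 in adults (adjusted p = 6.92e-06).

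Genes that supply reducing power were few in the table. All 3 that are listed were called higher in adult D. sechellia, against 67.2% of all genes. After rescaling 2 of them were, against 2023 of 6396 genes. Pgd, the NADPH-producing 6-phosphogluconate dehydrogenase, stood at 2.11 (adjusted p = 1.84e-20), Gclc, the catalytic subunit for the first step of glutathione synthesis, at 1.12 (adjusted p = 6.03e-13), and Txl, a thioredoxin-like protein, at 0.67 (adjusted p = 3.39e-06), which rescaling turned to -0.12 (adjusted p = 0.280). In larvae all 3 were called higher, against 49.4% of all genes, led by Gclc at 2.71 (adjusted p = 2.15e-11). After rescaling 1 was called higher, against 2027 of 7133 genes. Pgd was 2.43 higher in adult hybrids than in D. simulans, as Prx5 was. All 3 were called higher there, with a median of 0.67 beside an all-gene median of 0.84. After rescaling 1 was higher and 2 lower, with a median of -0.54, against 2094 and 2530 of 6396 genes.

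Among regulators and oxidant sources in adults, 7 of 10 were called higher in D. sechellia and 0 lower, against 67.2% of all genes called higher. The median was 1.13, beside an all-gene median of 0.72. After rescaling 3 were higher and 3 lower, against 2023 and 1632 of all 6396 genes. Keap1, which holds the oxidative stress factor Cnc in check, was 1.63 higher in adults (adjusted p = 4.74e-11) and 1.33 higher in larvae (adjusted p = 5.37e-07). The oxidant-producing NADPH oxidases Duox and Nox were not called in adults, at -0.10 and 0.09, but were called lower after rescaling, at -0.86 (adjusted p = 1.00e-05) and -0.55 (adjusted p = 0.0469). In larvae 2 of 9 were called higher and 1 lower, with a median of 0.29, against 49.4% of all genes called higher. The rescaled counts were 1 and 4, against 2027 and 1680 of all 7133 genes.

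Genes listed under peroxisome assembly and oxidation were called higher in D. sechellia in 12 of 13 tested in adults and 11 of 14 in larvae, with 0 lower in either stage. Of all genes 67.2% and 49.4% were called higher. The medians of this list were 1.26 and 0.83, beside all-gene medians of 0.72 and 0.56. After rescaling the counts were 6 higher and 1 lower in adults and 5 and 1 in larvae. Of all genes 2023 of 6396 were then higher and 1632 lower in adults, and 2027 and 1680 of 7133 in larvae. Uro, the peroxide-producing urate oxidase of the Malpighian tubule, was 4.14 higher in adults (adjusted p = 1.46e-16), and ScpX, a peroxisomal thiolase-like sterol carrier protein, was 1.81 higher (adjusted p = 6.39e-17). The assembly factor gene Pex10 was 4.09 higher in larvae (adjusted p = 1.60e-12). ScpX was called with a lower D. sechellia allele as Cat was, at -3.23 in adults (adjusted p = 5.14e-09) and -2.57 in larvae (adjusted p = 3.34e-07). Its parental minus allelic difference was 3.68 in adults (adjusted p = 6.36e-20) and 3.31 in larvae (adjusted p = 2.22e-10). Its list did not lean this way. In adults the D. sechellia allele was called higher for 6 of 13 listed genes and lower for 4, and in larvae 3 of 14 went each way. The list's median allelic ratios were 0.52 and -0.24, against -0.11 and -0.47 over all genes. The parental minus allelic difference was called above 0 for 3 listed genes and below 0 for 6 in adults. In larvae these counts were 2 and 3. Over the contrasts that involve a medium, 1 gene of these 4 lists was called, the protease gene Lon in adult hybrids on octanoic acid at -0.51 (adjusted p = 0.0343). After rescaling Lon was not called (-0.35, adjusted p = 0.105), and Pex6 was called for the previous medium in hybrid larvae at 0.63 (adjusted p = 0.0439).

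Across the 24 group means of log2(FPKM + 1) the patterns of Cat and Prx5 were not alike. Their Pearson correlation was 0.05, and -0.46 after rescaling, as a description over groups that share column scales. Among 5741 genes compared, the named genes most like Cat were IP3K1 (0.918), spict (0.915), Ppt1 (0.909), Atg8a (0.907) and Eip63F-1 (0.906). Those most like Prx5 were ND-13A (0.981), JhI-26 (0.974), Cyt-c-p (0.974), Mpc1 (0.972) and Gbeta5 (0.971). After rescaling Atg8a stayed among the 5 most like Cat, and ND-13A, JhI-26, Cyt-c-p and Mpc1 stayed among the 5 most like Prx5.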

How the data were processed

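The members and the gene lists were chosen with earlier results of these data known. The authors deposited 1 table of FPKM for 7836 genes in 96 columns, 48 of parental libraries and 48 of hybrid alleles. FastQC, Bowtie2 and Cufflinks were used, per the submitters' processing notes. Which versions and genome builds were used, and how hybrid reads were split by allele, is not given in the sources used here. Read depth is unknown, so no counting interval is given. Replicates are labelled as biological replicates, and nothing says that they came from separate cultures, so p-values measure the spread between these samples, which may be technical. The table gives no coordinates, and 0 of its symbols matched the RefSeq gene table, so no position or sequence is given.

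From the deposited FPKM, log2(FPKM + 1) was tested with limma 3.58.1 in R 4.3.3 (variance trend, empirical Bayes) for genes that reached 1 FPKM in 3 or more of a fit's libraries. Adjustment was by Benjamini-Hochberg over the genes of 1 contrast, and a call is an adjusted p under 0.05. Fold changes are on the log2(FPKM + 1) scale, which understates changes of low genes. Each stage was fitted over 36 libraries with 12 group means, and species effects are averages over the 4 media histories. Stage was fitted in 48 parental libraries, and in the 24 hybrid libraries apart. Allele columns were scaled to a sum of 1000000 and tested with the library as a block, and 1 fit of scaled parental and allele columns gave the parental minus the allelic ratio. The Cat to Prx5 ratio was tested by permutation with 100000 resamples, and by exact sign flips within hybrid libraries, with 95% intervals. Scripts were tested on simulated data. The genes named are Cat and Prx5 and, per contrast and list, up to 4 called genes of smallest p and up to 2 uncalled ones of largest difference. Jafrac2 and Prx6005 in adults and PHGPx in larvae, between the species, were named after their values were seen. Likeness was computed for genes with a mean of at least 5 FPKM.

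Alternatives were median-ratio rescaling, a pseudocount of 0.1, no filter, no variance trend, a replicate block, a fit of the compared libraries alone, 1 total for both allele columns, no library block, an estimated correlation within hybrid libraries, and each library left out. Equal column sums and the allele tests of the Cat to Prx5 ratio were added after the data were seen. Python 3.11.15, pandas 2.3.3, numpy 2.4.6, scipy 1.17.1 and matplotlib 3.10.9 were used for tables and figures.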

Additional observations from a re-analysis of the deposited data

Results flagged for a closer look

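In these results the same contrast gave effects that differed between groups by a test of the difference itself, in limma with Benjamini-Hochberg adjustment. The species difference of Cat was larger in adults than in larvae by 1.51 on the log2 scale (adjusted p = 1.01e-09), with adult FPKM ranges of the species apart and larval ones overlapping. As shares of the column sum the adult Cat ranges overlapped too. For Prx5 the same difference between stages was 0.58 (adjusted p = 1.38e-05), with the FPKM ranges of the species apart in both stages. As shares of the column sum the larval Prx5 ranges overlapped. With equal sums the larval species difference of Prx5 was 0.11 and was not called, beside an all-gene median of -0.65. The parental ratio of Cat exceeded its allelic ratio by 2.11 in adults (adjusted p = 1.55e-10) and by 0.95 in larvae (adjusted p = 0.00723), with every column scaled to the same sum. With 1 total for both allele columns this pair of Cat values turned to -0.34 (adjusted p = 0.161) and -0.21 (adjusted p = 0.564), so that both the sign and the call depend on the scale. The part of read assignment was not tested.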

How the results depend on the processing

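Of 88 results 29 were called, and the scale of the columns was the choice that moved calls or signs most. Median-ratio rescaling turned Cat for hybrids minus D. simulans to -0.50 in adults and -0.36 in larvae and for the larval species difference to -0.0305. It turned Prx5 for hybrids minus D. sechellia to -0.14 in adults and 0.0791 in larvae, and for the parental minus allelic ratio to 0.42, then called (adjusted p = 0.0163), and 0.16. Cat between stages in D. sechellia turned to -0.26. Among uncalled media values it gave Prx5 0.012 for the previous medium in adult D. simulans, 0.15 and -0.050 for the interaction in D. simulans and hybrid larvae and -0.091 for species by current medium in larvae. For Cat it gave -0.014 for the interaction in adult hybrids and -0.011 for the previous medium in D. sechellia larvae. Equal column sums gave larval species differences of -0.84 for Cat and 0.11 for Prx5, beside an all-gene median of -0.65. With 1 total for both allele columns, the adult allelic ratio of Cat was 1.07, and its parental minus allelic ratios were -0.34 and -0.21 in adults and larvae, while those of Prx5 were -2.71 and -1.47 and were then called. That total gave allelic differences by medium for Cat of 0.13 (current, adults), -0.10 (previous, adults) and -0.00086 (previous, larvae), and for Prx5 of -0.038 (previous, larvae). The cause of these moves beyond the scale itself was not tested.

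The replicate numbers were shared across groups. Deviations of same-numbered libraries had correlations from -0.742 to 0.609 (median 0.010) in adults and from -0.733 to 0.756 (median 0.041) in larvae. Libraries with different numbers had medians of -0.004 and -0.018. Of 36 libraries per stage, 14 in adults and 19 in larvae correlated best with their own number. The number was not taken as a pairing in the main fits. Whether same-numbered libraries shared a batch was not tested. With the replicate block the current medium effect on Prx5 in adult hybrids was 0.25 (adjusted p = 0.136), and the block changed none of the calls. A pseudocount of 0.1, no filter, no variance trend, only the libraries compared, no library block and the estimated correlation changed no call and no direction.

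No called result lost its call with any 1 library left out. Prx5 for the parental minus allelic ratio in adults ran from -0.31 to -0.20 and was called without D. sechellia OS 1 (adjusted p = 0.0304), D. sechellia SS 1 (0.0438), hybrid SO 3 (0.0333) or hybrid SS 2 (0.0230). Prx5 for the current medium in adult hybrids ran from 0.21 to 0.28 and was called without D. sechellia OS 2 (adjusted p = 0.0477). Prx5 for larval hybrids minus D. sechellia ran from -0.24 to -0.10 and was called without hybrid SO 3 (adjusted p = 0.0475). Uncalled values changed sign between these limits. For Cat in adults they were -0.0061 to 0.12 (current, D. simulans), -0.21 to 0.055 (interaction, D. simulans), -0.20 to 0.072 (current, D. sechellia), -0.22 to 0.34 (interaction, hybrids), -0.25 to 0.016 (species by current) and -0.050 to 0.15 (allelic by previous). For Prx5 in adults they were -0.19 to 0.012 (current, D. sechellia), -0.16 to 0.24 (interaction, D. sechellia), -0.086 to 0.044 (interaction, hybrids), -0.14 to 0.061 (species by current) and -0.041 to 0.16 (allelic by current). For Cat in larvae they were -0.096 to 0.096 (hybrids minus D. simulans), -0.17 to 0.042 (current, D. sechellia), -0.0205 to 0.19 (previous, D. sechellia), -0.38 to 0.16 (allelic by current) and -0.20 to 0.34 (allelic by previous). For Prx5 in larvae they were -0.11 to 0.019 (current, D. simulans), -0.16 to 0.093 (interaction, D. simulans), -0.043 to 0.031 (current, D. sechellia), -0.058 to 0.016 (previous, D. sechellia), -0.17 to 0.11 (current, hybrids), -0.10 to 0.18 (previous, hybrids), -0.029 to 0.097 (species by current) and -0.063 to 0.17 (allelic by previous). The adult species difference of the Cat to Prx5 ratio ran from -0.045 to 0.020. Depth could not be weighed, since FPKM hold no counts.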
